A study of Homo sapiens with 12 samples.

Results

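Epithelial-to-mesenchymal transition (EMT) is the program by which epithelial cells lose their lateral contacts and acquire a motile, matrix-producing state. It is driven by transcription factors of the SNAIL, ZEB and TWIST families, which bind E-boxes and repress the adhesion molecule E-cadherin, while cytoskeletal and matrix proteins such as vimentin and fibronectin are produced in its course. The miR-34 family, whose genes are induced by p53, is known to repress SNAIL, and SNAIL and ZEB1 in turn are known to repress miR-34 genes, so that the microRNAs and the EMT factors form feedback loops. The 10 genes described here were selected by name from the count files: the transcription factors *SNAI1*, *SNAI2*, *ZEB1*, *ZEB2* and *TWIST1*, the mesenchymal structural genes *VIM* (vimentin) and *CDH2* (N-cadherin), the matrix genes *FN1* (fibronectin) and *THBS1* (thrombospondin 1), and the epithelial gene *CDH1* (E-cadherin). They were chosen with earlier results of these data known, and are 10 of 60580 listed genes. Of these, 8 reached at least 20 counts in at least 1 library and were tested among 16123 such genes, whereas *ZEB2* and *CDH2* did not reach that level in any library.

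RNA was sequenced from HCT116 cells, an established human colorectal cancer cell line with functional p53, in 4 groups: cells of either genotype, *WT* or *miR-34a/b/c-KO*, were exposed for 48 h to the solvent DMSO or to 5-FU, a pyrimidine analog used in chemotherapy. The *KO* cells lack *miR-34a* and *miR-34b/c* after CRISPR/Cas9 deletion and were established as single-cell clones, as were the *WT* controls, which received Cas9 without a guide RNA. The labels do not say which clone each replicate came from, so that p-values measure the spread between these libraries, and effects of a clone and of the deletion cannot be told apart. The file of *WT* 5-FU replicate 1 repeated the counts of *WT* DMSO replicate 3 (0 of 60580 genes differed) and was not used, which left 3 *WT* DMSO, 3 *KO* DMSO, 2 *WT* 5-FU (replicates 2 and 3) and 3 *KO* 5-FU libraries.

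Total counts ranged from 22831415 to 39064210 with a median of 25698417 in the 11 libraries. The microRNA entries *MIR34A*, *MIR34B* and *MIR34C* were at 0 in every library, *WT* included, so they could not serve to check the genotype, and the host transcript *MIR34AHG*, whose annotation extends beyond the microRNA, was at 4.83 ± 0.467 CPM (SD, n = 3) in *WT* DMSO and 22.2 ± 0.295 (n = 3) in *KO* DMSO. Of 10 colon epithelium markers, *KRT8*, *KRT18*, *KRT19*, *EPCAM*, *ELF3* and *CDH1* were at 106 CPM or more in every library, and *CDX2* was at 19.8 to 26.3 CPM. The other 3 were low or absent, *VIL1* with 0 to 2.21 CPM, *CDH17* with 0.0579 to 1.39 CPM and *LGALS4* with at most 4 counts. Expression is given as CPM, the count of a gene relative to the scaled total of its library. A gene was called higher or lower when the false discovery rate (FDR) was below 0.05 and the fold change above 1.5. Overlap of library ranges is a description only, and the share of all genes without overlap was not counted. In bulk RNA, fewer cells of a type and less RNA per cell cannot be told apart.

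The microRNAs that the *KO* cells lack recognize mRNAs by their seed, bases 2 to 8, and the sequences are shown here with the seed in capitals, because the matches in the mRNAs below are read against them (RefSeq, GRCh38.p14). miR-34a-5p lies on chr1:9151735-9151756, minus strand, and miR-34b-5p on chr11:111512950-111512972, plus strand. The mature miR-34c-5p has the seed of miR-34a-5p and is named only.
hsa-miR-34a-5p: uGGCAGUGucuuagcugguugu
hsa-miR-34b-5p: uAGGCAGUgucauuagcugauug

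The 3′ UTRs of the 10 genes (GENCODE 44, 1 transcript per gene) were searched for the complement of these seeds, CACTGCC for miR-34a and miR-34c and ACTGCCT for miR-34b. A match of CACTGCC occurred once in *SNAI1*, at base 86 of a 3′ UTR of 830 bases and followed by A, and once in *ZEB1*, at base 2328 of 2540. The *ZEB1* match overlaps one of ACTGCCT, and *THBS1* had 1 match of ACTGCCT alone, at base 1825 of 4097. The 3 sites are shown with their flanks, the match in capitals. They lie on chr20:49988127-49988156, chr10:31529577-31529606 and chr15:39597179-39597208, all on the plus strand of GRCh38.
SNAI1: accccacatccttctCACTGCCatggaatt
ZEB1: cactctcacattcctCACTGCCtaacaggg
THBS1: aatttatcaggaaatACTGCCTgtagagtt

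None of the other 7 genes, *SNAI2*, *ZEB2*, *TWIST1*, *VIM*, *CDH2*, *FN1* and *CDH1*, held either word in the 3′ UTR searched. For comparison, 17.6% of the 13123 protein-coding genes tested with a 3′ UTR held CACTGCC and 15.8% held ACTGCCT. A match is a description of the sequence and was not tested as a site. Among the 3 genes with a match, *ZEB1* and *THBS1* were higher in *KO* than in *WT* cells in DMSO and *SNAI1* was not called, and *VIM*, which differed most, had none.

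The levels of the 10 genes covered a wide range. Per kilobase of annotated exon, *CDH1* was highest in all 4 groups, with 20.9 ± 0.935 CPM per kb (SD, n = 3) in *WT* DMSO. It was followed there by *SNAI1* (4.96 ± 0.269), *TWIST1* (2.49 ± 0.512), *THBS1* (1.82 ± 0.0785), *FN1* (1.06 ± 0.133), *VIM* (0.458 ± 0.0204), *ZEB1* (0.244 ± 0.0458) and *SNAI2* (0.0623 ± 0.0519). The ranges of neighbors in this order did not overlap in *WT* DMSO, apart from *ZEB2* and *CDH2* at the end, although the *TWIST1* and *THBS1* ranges lay close together. These ranges hold the spread of libraries only. The length was that of all annotated exons of a gene joined (17.2 kb for *FN1*), so that the order depends on the annotation. In *KO* DMSO *THBS1* moved up to the second place with 6.92 ± 0.442 CPM per kb, and *TWIST1* and *VIM*, as well as *ZEB1* and *FN1*, overlapped. In *WT* 5-FU *THBS1* also held the second place (13.3 ± 1.25, n = 2), and in *KO* 5-FU it reached 15.5 ± 0.46 (n = 3). There, *VIM*, *FN1* and *SNAI2* each overlapped with the next gene in the order, the last with *ZEB1*.

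The ZEB-family gene *ZEB2* and the N-cadherin gene *CDH2* were at or near 0. *CDH2* had 0 counts in all 11 libraries. *ZEB2* had 1 count in *KO* DMSO replicate 3 and 1 count in *KO* 5-FU replicate 3, and 0 in the other libraries. A count of 0 allows up to 3 counts, which correspond to 0.0768 to 0.131 CPM in these libraries, counting error only. No difference of these genes between groups was detectable at this depth.

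**Figure D1:**
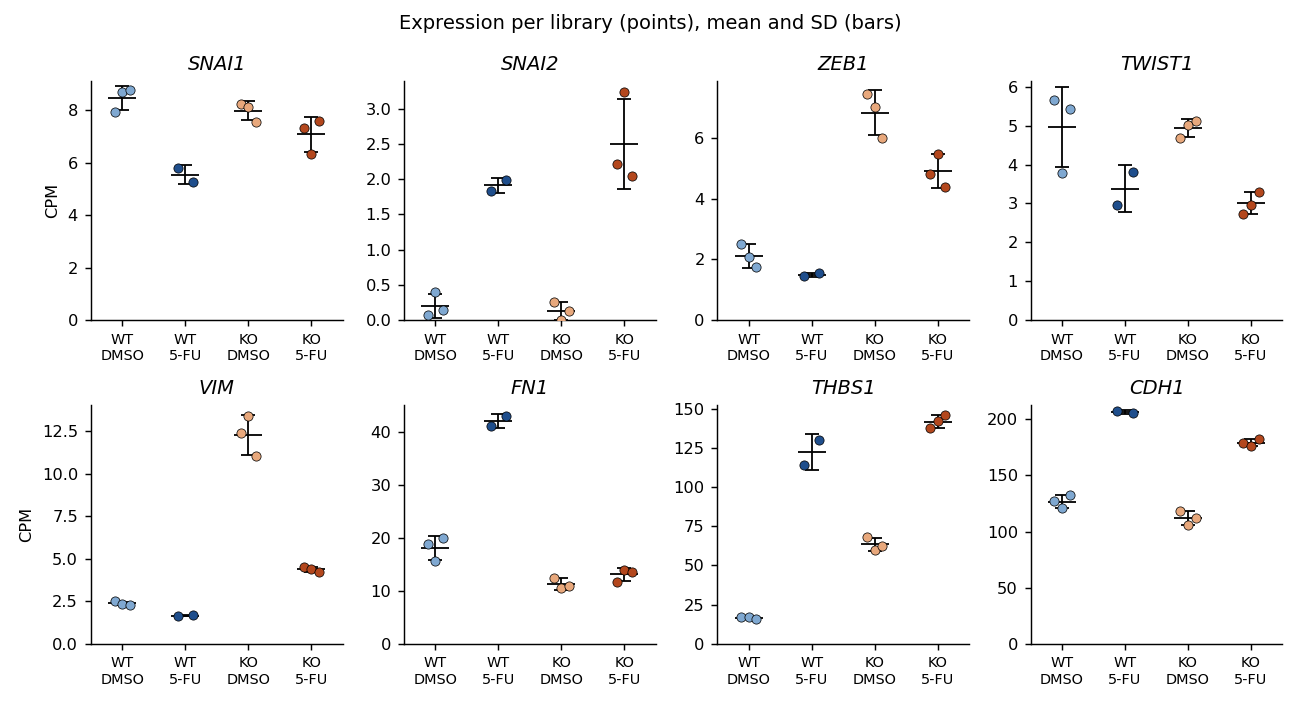
CPM (y axis, linear from 0) of the 8 tested genes in each library, by genotype and treatment (x axis). Points are libraries, horizontal bars the mean and SD, with 2 libraries in WT 5-FU and 3 in the other groups, and VIM and ZEB1 of both KO groups lie above both WT groups.

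The first comparison asked how the basal expression of these genes differed between *miR-34a/b/c-KO* and *WT* cells in DMSO. *VIM*, *THBS1* and *ZEB1* were higher in *KO* cells and *FN1* was lower, so that mesenchymal genes moved in both directions. Of the 8 genes tested, 3 were called higher and 1 lower, against 9.1% and 4.97% of all 16123 genes. The median log2 fold change of the 8 genes was -0.05, that of all genes 0.03.

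*VIM*, which encodes the intermediate filament of mesenchymal cells, is located on chromosome 10 (17228241 to 17237593, plus strand, GRCh38). In DMSO it was at 2.49, 2.34 and 2.29 CPM in the *WT* libraries and at 12.4, 13.4 and 11.05 CPM in the *KO* libraries. The lowest *KO* value was thus far above the highest *WT* value. The log2 fold change was 2.37 (SE 0.12), 5.17-fold higher in *KO* cells, with an FDR of 1.79e-10. The level in *WT* cells was low in absolute terms, at 53 to 79 counts per library.

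*THBS1* encodes a secreted matrix glycoprotein that can activate latent TGF-beta. The gene lies on chromosome 15 (39581079 to 39599466, plus strand). Its values in DMSO were 17.3, 16.8 and 15.9 CPM in *WT* and 67.8, 59.8 and 62.6 CPM in *KO* cells, without overlap. The log2 fold change was 1.93 (SE 0.07), corresponding to 3.82-fold, with an FDR of 4.86e-12.

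*ZEB1*, the zinc finger and homeobox repressor of E-cadherin, is also encoded on chromosome 10 (31318495 to 31529814, plus strand). The *WT* libraries had 2.52, 2.07 and 1.74 CPM and the *KO* libraries 7.47, 7.02 and 6.02 CPM. All *KO* values exceeded all *WT* values. The difference of 1.70 (SE 0.16) on the log2 scale was 3.25-fold, with an FDR of 2.98e-07.

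*FN1* encodes fibronectin, an abundant matrix protein and a common EMT marker, and lies on chromosome 2 (215360440 to 215436073, minus strand). It was at 18.9, 15.7 and 20.1 CPM in *WT* DMSO and at 12.5, 10.5 and 10.9 CPM in *KO* DMSO. Unlike *VIM*, it was lower in every *KO* library than in any *WT* library. The log2 fold change was -0.70 (SE 0.10, FDR 3.87e-05, 1.62-fold lower). This value was close to the required fold change, and under a test against a fold change of 1.5 itself (glmTreat) the call was lost with an FDR of 0.466. With 1 factor of unwanted variation (RUVg), neither *FN1* (-0.89, FDR 0.174) nor *ZEB1* (1.79, FDR 0.146) was called.

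The other 4 tested genes were not called in DMSO. *CDH1*, the adhesion molecule of adherens junctions on chromosome 16 (68737292 to 68835537, plus strand), had 127, 121 and 132 CPM in *WT* and 119, 106 and 112 CPM in *KO* cells. These ranges did not overlap, but the log2 difference of -0.18 (SE 0.05, FDR 0.00876) was only 1.13-fold. *SNAI1*, the SNAIL gene on chromosome 20 (49982980 to 49988886, plus strand), had 7.94, 8.68 and 8.77 CPM in *WT* and 8.22, 8.13 and 7.56 CPM in *KO* cells, and these ranges overlapped (log2 fold change -0.09, SE 0.10, FDR 0.503).

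*TWIST1*, a basic helix-loop-helix factor on chromosome 7 (19020991 to 19117636, minus strand), varied among the *WT* libraries, with 5.66, 3.79 and 5.44 CPM, and had 4.68, 5.02 and 5.13 CPM in *KO* cells (log2 fold change -0.02, SE 0.15, FDR 0.943). *SNAI2*, the SLUG gene on chromosome 8 (48917598 to 48921740, minus strand), was barely detected, with 2, 9 and 5 counts in *WT* and 6, 0 and 4 counts in *KO* libraries. Its log2 fold change of -0.56 had an SE of 0.74 (FDR 0.568), so that a difference in either direction was not detectable at this depth. The remaining genes with positions, *CDH2* (chromosome 18, 27932879 to 28177946) and *ZEB2* (chromosome 2, 144364364 to 144521057), both on the minus strand, were not tested.

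**Figure D2:**
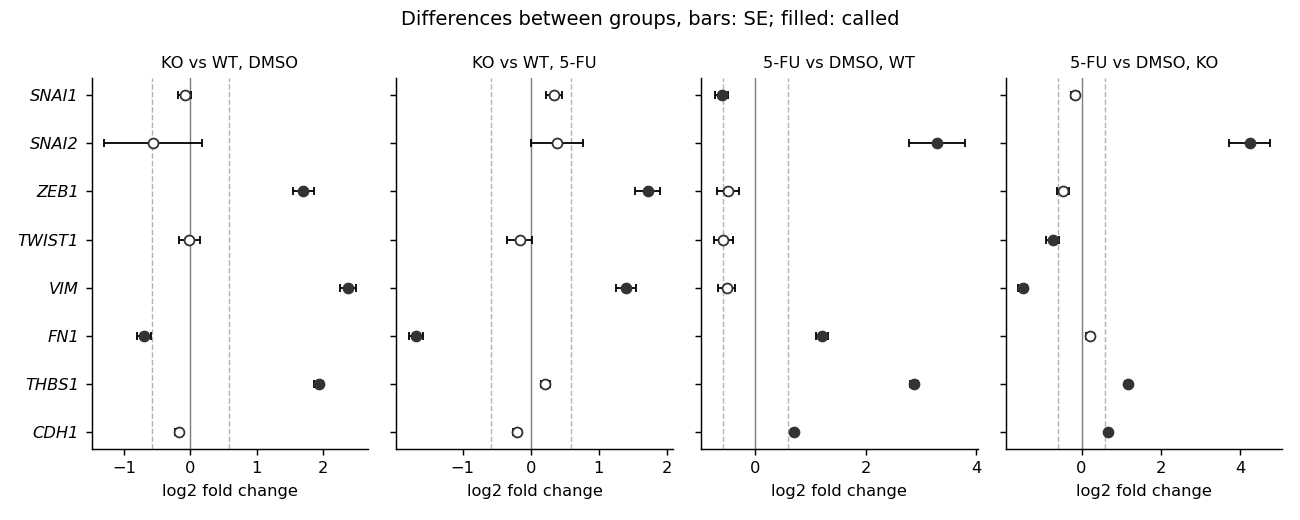
Log2 fold changes (x axis) of the 8 tested genes (y axis) in 4 comparisons, bars showing the SE and dashed lines the 1.5-fold limits; each panel has its own x axis. Filled points are called (FDR below 0.05 and fold change above 1.5), among them VIM (2.37) and ZEB1 (1.70) for KO vs WT in DMSO and THBS1 (2.88) for 5-FU vs DMSO in WT cells.

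Genes of 8 lists around the EMT genes are given next by their counts and extremes. Over all genes tested, 9.1% were called higher and 4.97% lower in this comparison. The list of further mesenchymal and matrix genes had 9 of 33 tested genes higher and 1 lower in *KO* DMSO, with a median log2 fold change of 0.28. *SPARC*, a collagen-binding matrix protein, rose most, from 6.34 ± 1.58 to 60.1 ± 4.71 CPM (SD, n = 3 each; log2 fold change 3.22, FDR 2.45e-11), and the gelatinase *MMP9* was lower at -1.51 (FDR 0.0147), with at most 14 counts. Of 19 TGF-beta ligands, receptors and SMADs, 2 were higher and 0 lower. They were led by the ligand *TGFB2* with 4.43 ± 0.864 against 0.249 ± 0.0167 CPM (4.13, FDR 7.79e-09), with at most 8 counts in *WT*. In the list of further EMT-linked transcription factors 1 of 14 was higher (*MSX2*, 1.32, FDR 1.44e-09) and 2 were lower (lowest *RUNX2*, -1.77, FDR 2.22e-05). The epithelial transcription and splicing factors had 2 of 16 higher and 5 lower. The extremes were the miR-200c host *MIR200CHG* (1.0, FDR 0.0262) and the grainyhead factor *GRHL3* (-1.31, FDR 0.002). Their counts were low, at most 35 and 34 in these libraries.

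Of 17 receptors and relatives of fibronectin and thrombospondin, 1 was higher, the integrin subunit *ITGB8* (1.63, FDR 1.56e-09), and 1 lower, *THBS2*, which had up to 18 counts in *WT* and at most 2 in *KO* libraries. Among 10 cadherin partners and other cadherins, *NECTIN3*, an adhesion molecule of adherens junctions, was the 1 called gene, with 185 ± 6.96 CPM in *KO* and 41.9 ± 1.48 in *WT* cells (2.14, FDR 7.72e-13). Other intermediate filament genes had 1 of 14 higher (*KRT23*, 0.95, FDR 5.16e-05) and 2 lower (lowest *KRT20*, -2.31, FDR 1.56e-08). Of 12 tested published miR-34 targets linked to EMT, 3 were higher and 0 lower, the largest difference being that of the interleukin-6 receptor *IL6R* (1.09, FDR 7.24e-08). Their median of -0.02 lay below that of all genes.

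Most markers of other cell types were low, but their sums differed between the groups. The summed level of 10 fibroblast markers was 22.1 to 27.2 CPM in *WT* DMSO, 46.8 to 51.3 in *KO* DMSO, 50.1 to 60.6 in *WT* 5-FU and 70.5 to 72.0 in *KO* 5-FU, and 4, 4, 2 and 3 of the 10 were at 0 throughout these groups. Most of the sum was *COL1A1* (21.7 to 70.5 CPM), and 5 of the 10, *DCN*, *LUM*, *PDGFRA*, *THY1* and *FAP*, had at most 3 counts in any library. The 8 endothelial markers summed to 1.98 to 2.46, 1.74 to 2.42, 9.90 to 9.97 and 4.20 to 4.87 CPM in the same order, with *ERG* at 0 in all libraries. Highest among them were *VWF* (0.918 to 6.11 CPM) and *ROBO4* (0.0721 to 3.36 CPM). For 8 leukocyte markers the sums were 16.3 to 20.7, 20.7 to 22.6, 40.1 to 44.4 and 44.6 to 46.9 CPM, and *PTPRC* had at most 1 count. The highest leukocyte markers were *CD68* (15.1 to 36.2 CPM), *ITGAM* (0.353 to 11.1 CPM) and *LYZ* (0.414 to 2.50 CPM). All libraries came from cultures of a cell line established as single-cell clones, so that the sums describe marker genes and do not count cell types. The part of these markers in the differences above was not tested.

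In a second comparison, the response to 5-FU was measured in *WT* cells. *SNAI2*, *THBS1*, *FN1* and *CDH1* were higher after 5-FU and *SNAI1* was lower, so that the epithelial gene *CDH1* rose together with matrix genes. These were 4 and 1 of 8 genes, against 18.5% called higher and 9.38% called lower among all genes. This comparison shares its DMSO libraries with the comparison of *KO* and *WT* cells in DMSO.

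*THBS1* reached 114 and 130 CPM in the 2 *WT* 5-FU libraries, compared with 15.9 to 17.3 CPM in DMSO. Its FDR was the lowest of the 8 genes, with a log2 fold change of 2.88 (SE 0.07, FDR 1.62e-14) or 7.35-fold. *FN1* was at 41.3 and 43.2 CPM after 5-FU, above the 15.7 to 20.1 CPM in DMSO (1.21, SE 0.10, FDR 3.66e-08). *CDH1* rose to 208 and 205 CPM, a log2 fold change of 0.70 (SE 0.05, FDR 1.41e-08) or 1.63-fold.

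*SNAI2* had 71 and 58 counts after 5-FU against 2 to 9 in DMSO. In CPM these were 1.84 and 1.99 against 0.0721, 0.397 and 0.145. The rise was 3.29 on the log2 scale, with the large SE of 0.51 that the few DMSO counts give (FDR 3.35e-05). *SNAI1*, its family member, was at 5.80 and 5.27 CPM, below all 3 DMSO libraries. With a log2 fold change of -0.61 (SE 0.11, FDR 0.000248) or 1.52-fold it just passed the fold limit, and it was not called without *WT* 5-FU replicate 3 (-0.54) or without *WT* DMSO replicate 3 (-0.58).

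The other 3 genes had negative log2 fold changes short of the fold limit. *TWIST1* was at 2.95 and 3.80 CPM, overlapping with the DMSO range (-0.58, SE 0.18, FDR 0.01), and was called without *WT* 5-FU replicate 3 (-0.76) or without *WT* DMSO replicate 2 (-0.73). *VIM* was at 1.63 and 1.68 CPM (-0.52, SE 0.16, FDR 0.00955). *ZEB1* was at 1.45 and 1.54 CPM (-0.49, SE 0.20, FDR 0.0478), and was called at -0.63 without *WT* DMSO replicate 3. None of the *VIM* or *ZEB1* values after 5-FU overlapped with those in DMSO.

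Among list genes in *WT* cells, matrix genes had 18 of 33 higher and 3 lower after 5-FU. Their median was 0.73 against 0.03 for all genes, of which 18.5% were called higher and 9.38% lower. The basement membrane collagen *COL4A1* rose from 0.0746 ± 0.0648 to 1.85 ± 0.242 CPM (4.43, FDR 1.18e-06), with at most 4 counts in DMSO. *SPARC* fell by 2.44 (FDR 1.25e-07). Intermediate filament genes had 8 of 14 higher and 2 lower, from *KRT80* (2.81, FDR 2.87e-13) to the nuclear lamin *LMNB1* (-1.16, FDR 6.38e-11). EMT-linked factors had 5 of 14 higher (*RUNX2*, 1.33, FDR 3.96e-05) and 1 lower (*FOXC1*, -1.57, FDR 9.17e-12). Of 16 epithelial factors, 4 were higher, led by *GRHL3* with 11.3 ± 0.751 against 1.15 ± 0.3 CPM (3.32, FDR 3.16e-10), and 0 lower. Of the TGF-beta genes, 6 of 19 rose (largest *SMAD7*, 1.26, FDR 5.04e-06). Of the receptors, 4 of 17 rose (largest *LRP1*, 2.16, FDR 2.52e-11). In the cadherin list 4 of 10 were higher, among them *CDH17* with up to 18 counts against at most 3, and 1 lower (*NECTIN3*, -1.38, FDR 5.71e-10). The published miR-34 targets had 5 of 12 higher (largest *CSF1R*, 1.70, FDR 0.00864, at most 30 counts) and 1 lower, *SNAI1* itself.

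The same treatment was then measured in *miR-34a/b/c-KO* cells. *SNAI2*, *THBS1* and *CDH1* were again called higher, while *VIM* and *TWIST1* were called lower. This made 3 and 2 of 8 genes, against 13.3% and 12% of all genes. *SNAI2* had 56, 87 and 49 counts after 5-FU against 6, 0 and 4 in DMSO, or 2.22, 3.23 and 2.04 CPM. All 5-FU libraries exceeded all DMSO libraries (log2 fold change 4.24, SE 0.51, FDR 2.52e-06).

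*THBS1* reached 137, 142 and 146 CPM from 59.8 to 67.8 CPM, a log2 fold change of 1.16 (SE 0.06, FDR 1.09e-10) or 2.24-fold. *CDH1* was at 179, 176 and 183 CPM (0.68, SE 0.05, FDR 7.65e-09), a 1.60-fold rise over 106 to 119 CPM. *VIM* dropped to 4.52, 4.38 and 4.21 CPM, below the 11.05 to 13.4 CPM in DMSO (-1.49, SE 0.11, FDR 7.54e-09). Despite this 2.80-fold decrease, the 3 libraries stayed above the 2.29 to 2.49 CPM of *WT* cells in DMSO.

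*TWIST1* had 2.73, 2.97 and 3.30 CPM after 5-FU, all below DMSO (-0.72, SE 0.17, FDR 0.00127). *ZEB1* was at 4.83, 5.50 and 4.38 CPM, also below its DMSO range, but by less than 1.5-fold (-0.47, SE 0.15, FDR 0.0102). *FN1* remained at 11.7, 14.0 and 13.6 CPM, overlapping with DMSO (0.22, SE 0.11, FDR 0.0852). *SNAI1* was at 7.33, 6.31 and 7.60 CPM and likewise overlapped with DMSO (-0.17, SE 0.10, FDR 0.165).

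In *KO* cells 12 of 33 matrix genes were higher and 3 lower after 5-FU. Over all genes tested, 13.3% were called higher and 12% lower. *SPARC* fell from 60.1 ± 4.71 to 13.6 ± 0.912 CPM (-2.14, FDR 3.29e-10), and the extreme on the other side was *MMP2* with up to 6 counts against 0 in every DMSO library, for which no fold change is given. Of the EMT-linked factors, 6 of 14 were higher (*SNAI3*, 1.31, FDR 1.16e-06) and 2 lower (*FOXC1*, -1.77, FDR 5.59e-13). The epithelial factors had 3 of 16 higher, led by *GRHL3* (5.06, FDR 6.02e-12), and *HNF4A* as the 1 lower (-1.28, FDR 0.0112). *GRHL3* had at most 18 counts in DMSO, and *HNF4A* at most 25 in DMSO and 10 after 5-FU. TGF-beta genes were called equally often in both directions, 5 of 19 each, from *SMAD7* (1.13, FDR 9.47e-06) to *TGFB2* (-1.07, FDR 0.000351). For receptors, 5 of 17 were higher (*CD36*, 1.93, FDR 0.0137, at most 20 counts) and 1 lower (*ITGB3*, -1.01, FDR 0.0331, at most 41 counts). The cadherin list had 3 of 10 higher (*CDH17*, 2.68, FDR 3.83e-05, at most 35 counts) and *NECTIN3* lower (-1.67, FDR 2.88e-12). Intermediate filament genes had 5 of 14 higher (*KRT80*, 1.15, FDR 1.07e-08) and 2 lower (*LMNB1*, -1.09, FDR 2.6e-11), and published miR-34 targets 4 of 12 higher (*NOTCH1*, 1.30, FDR 3.58e-10) and 0 lower.

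**Figure D3:**
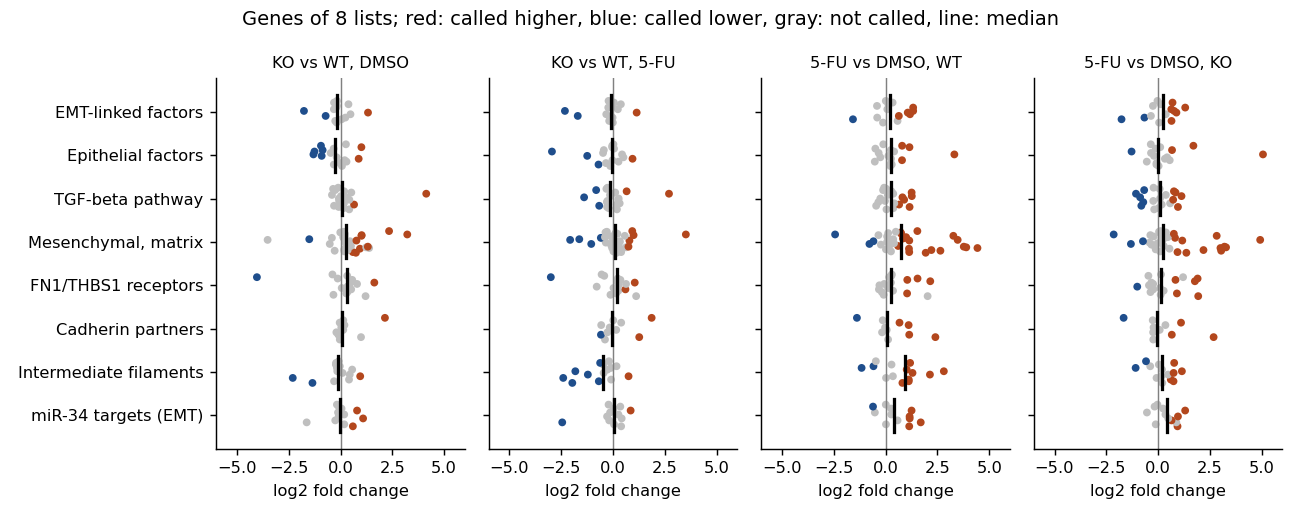
Log2 fold changes (x axis) of the tested genes of 8 lists (y axis) in 4 comparisons, each point a gene and each black line the median of a list. The median of the mesenchymal and matrix genes is 0.28 for KO vs WT in DMSO and 0.73 for 5-FU vs DMSO in WT cells.

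The calls of both 5-FU responses were also counted under other settings. With 1 RUVg factor, 0 of the 8 genes were called in either genotype. Over all genes 2 were called in *WT* and 0 in *KO* cells, with 2344 and 2611 genes at an unadjusted p below 0.05. The variance of this factor lay to 96.9% between the treatments, so that this fit cannot separate a 5-FU response from the factor. When the identical library was kept as *WT* 5-FU replicate 1, 0 of the 8 genes were called in *WT* cells, as were 0 of all 16123 genes. In that fit *THBS1* was not called in *KO* cells (FDR 0.0757). With glmTreat, the calls of *SNAI1* in *WT* cells (FDR 0.676) and of *TWIST1* (FDR 0.366) and *CDH1* (FDR 0.0807) in *KO* cells were lost.

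A further comparison set *KO* against *WT* cells after 5-FU. *ZEB1* and *VIM* were higher in *KO* cells and *FN1* was lower, whereas *THBS1* was no longer called. These were 2 and 1 of 8 genes, against 7.58% and 10.6% of all genes. The 3 *KO* libraries exceeded both *WT* libraries for *ZEB1*, with 4.38 to 5.50 against 1.45 and 1.54 CPM (1.72, SE 0.19, FDR 2.06e-06). For *VIM* they had 4.21 to 4.52 against 1.63 and 1.68 CPM (1.40, SE 0.15, FDR 1.29e-06). *FN1* was at 11.7 to 14.0 CPM in *KO* and at 41.3 and 43.2 CPM in *WT* cells, 3.22-fold lower (-1.68, SE 0.10, FDR 3.09e-09).

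*THBS1*, 3.82-fold higher in *KO* cells in DMSO, was 1.16-fold higher after 5-FU (0.22, SE 0.07, FDR 0.0123), with 137 to 146 against 114 and 130 CPM. *SNAI1* was at 6.31 to 7.60 CPM in *KO* and 5.27 and 5.80 CPM in *WT* cells, also without overlap and below the fold limit (0.35, SE 0.12, FDR 0.0209). *CDH1* was not called, with non-overlapping ranges of 176 to 183 CPM in *KO* and 205 and 208 CPM in *WT* cells (-0.20, SE 0.05, FDR 0.00547). *SNAI2* was not called (0.39, SE 0.38, FDR 0.421). Its ranges did not overlap either, with 2.04 to 3.23 CPM in *KO* and 1.84 and 1.99 CPM in *WT* cells. *TWIST1* was not called and its ranges overlapped (-0.16, SE 0.19, FDR 0.495).

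Of the matrix genes, 5 of 33 were higher and 4 lower in *KO* cells after 5-FU. Over all genes tested, 7.58% were called higher and 10.6% lower in this comparison. *SPARC* was again the largest difference (3.51, FDR 2.26e-09), and *MMP2* was the lowest, with at most 6 against 20 counts. *TGFB2* led the 2 higher of 19 TGF-beta genes (2.70, FDR 3.94e-06), and *SMAD6* was the lowest of 3 (-1.40, FDR 6.35e-08). The EMT-linked factors had *MSX2* as the 1 higher gene (1.14, FDR 1.15e-08) and 2 lower, lowest *RUNX2* (-2.32, FDR 4.83e-07). *FOXA1* was the 1 higher epithelial factor (0.94, FDR 0.000149), and *HNF4A* the lowest of 3 (-2.95, FDR 7.65e-06, at most 10 counts in *KO*). The receptors had 2 of 17 higher (*ITGB8*, 1.04, FDR 9.78e-07) and *THBS2* lower, with at most 5 against 31 counts. Cadherin-list genes were 2 of 10 higher (*NECTIN3*, 1.86, FDR 8.26e-11) and 1 lower (*CDH3*, -0.59, FDR 1.06e-07). Intermediate filament genes had 6 of 14 lower (lowest *KRT20*, -2.41, FDR 2.37e-08) and *KRT23* higher (0.75, FDR 0.000714). Of the published miR-34 targets, *NOTCH1* was higher (0.85, FDR 6.38e-07) and *CSF1R* lower (-2.45, FDR 0.00182). *CSF1R* had at most 6 counts in *KO* and 30 in *WT* libraries.

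Whether the 5-FU response differed between the genotypes was tested with the interaction, the log2 response in *KO* minus that in *WT* cells. It was called for *THBS1*, *FN1* and *VIM*, each with a response that was smaller or more negative in *KO* cells. This made 0 higher and 3 lower of 8 genes, against 3.42% and 6.66% of all genes. *THBS1* rose 7.35-fold in *WT* and 2.24-fold in *KO* cells, an interaction of -1.72 (SE 0.09, FDR 1.41e-08). The means of *WT* and *KO* cells were 16.6 and 63.4 CPM in DMSO and 122 and 142 CPM after 5-FU. *FN1* rose 2.31-fold in *WT* cells and was not called in *KO* cells (-0.99, SE 0.15, FDR 0.000159). *VIM* fell by 1.49 in *KO* cells and by 0.52 in *WT* cells on the log2 scale (-0.97, SE 0.19, FDR 0.00182).

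For *SNAI1* the interaction of 0.44 (SE 0.15, FDR 0.0473) was 1.35-fold and not called. At an FDR below 0.05 without the fold limit, 4 of the 8 genes passed, against 26.1% of all genes. That of *SNAI2* was 0.95 with an SE of 0.84 (FDR 0.43). The responses of *TWIST1* (-0.14, SE 0.24, FDR 0.698), *ZEB1* (0.02, SE 0.24, FDR 0.969) and *CDH1* (-0.03, SE 0.07, FDR 0.817) were not shown to differ. With 1 RUVg factor the *VIM* interaction was not called (-0.95, FDR 0.0901). With glmTreat, 1 of the 3 calls was kept, that of *THBS1*, and with the identical library included, that of *VIM* was the 1 left. Over the lists, the interaction was called for 0 higher and 3 lower of 33 matrix genes, 0 and 3 of 14 intermediate filament genes, 3 and 1 of 16 epithelial factors, 0 and 2 of 14 EMT-linked factors, and 0 and 2 of 19 TGF-beta genes. It was called lower for 1 gene each of the receptors, the cadherin list and the published miR-34 targets, and higher for 0 of them. Over all genes tested, the interaction was called higher for 3.42% and lower for 6.66%.

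**Figure D4:**
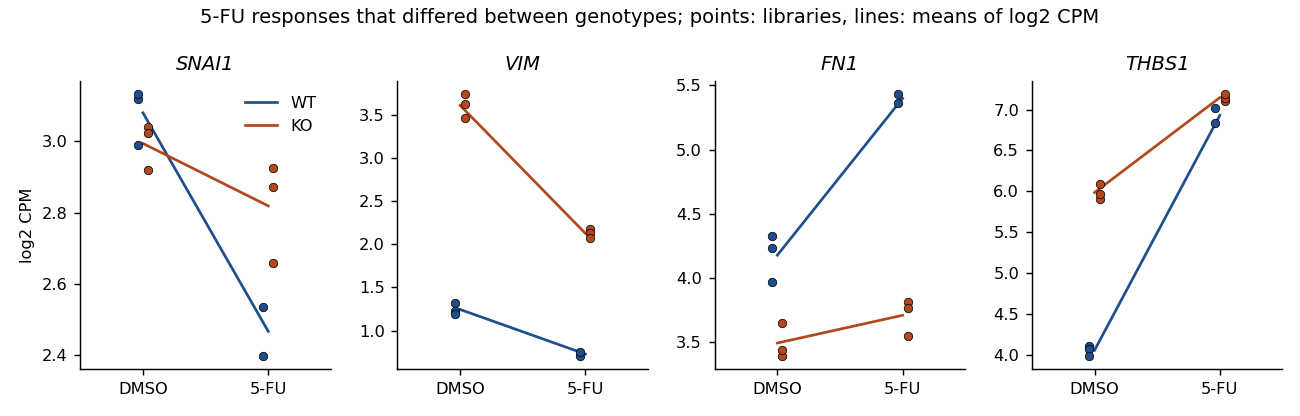
Log2 CPM (y axis, each panel with its own range) of the 4 genes with an interaction FDR below 0.05 in DMSO and 5-FU (x axis), points being libraries and lines joining the means of WT (blue) and KO (orange). The THBS1 lines start apart and end close together (interaction -1.72), whereas the FN1 lines diverge (-0.99).

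The promoters of the 3 genes whose response was called different between the genotypes are shown here, 300 bases around the RefSeq start of each, to give the sequence at the start site. *THBS1* lies at chr15:39580829-39581128 (plus strand), *FN1* at chr2:215436019-215436318 (minus strand) and *VIM* at chr10:17227991-17228290 (plus strand), all in GRCh38.p14. Capitals mark the GC box GGGCGG or its complement CCGCCC, the letters of which can overlap with the next match.
THBS1: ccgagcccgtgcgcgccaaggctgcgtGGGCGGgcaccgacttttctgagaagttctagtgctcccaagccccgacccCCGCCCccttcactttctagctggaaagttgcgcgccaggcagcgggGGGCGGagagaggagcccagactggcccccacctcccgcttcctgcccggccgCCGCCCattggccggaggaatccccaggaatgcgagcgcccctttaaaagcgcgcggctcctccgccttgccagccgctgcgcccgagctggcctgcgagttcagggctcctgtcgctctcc
FN1: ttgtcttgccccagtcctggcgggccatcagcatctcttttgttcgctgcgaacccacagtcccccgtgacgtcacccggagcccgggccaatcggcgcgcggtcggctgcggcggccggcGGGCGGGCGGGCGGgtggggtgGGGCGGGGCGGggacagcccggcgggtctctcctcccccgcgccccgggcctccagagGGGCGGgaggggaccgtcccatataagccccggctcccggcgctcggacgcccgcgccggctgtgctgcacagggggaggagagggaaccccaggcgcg
VIM: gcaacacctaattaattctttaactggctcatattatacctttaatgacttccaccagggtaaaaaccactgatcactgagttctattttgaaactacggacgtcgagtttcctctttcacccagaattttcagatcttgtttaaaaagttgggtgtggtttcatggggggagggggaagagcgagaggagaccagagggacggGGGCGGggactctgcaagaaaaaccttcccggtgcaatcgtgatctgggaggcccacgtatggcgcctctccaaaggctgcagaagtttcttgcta

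The *FN1* promoter held 6 matches of the GC box, that of *THBS1* 4 and that of *VIM* 1, and 45.0% of all 35116 RefSeq promoters of this length held at least 1. None of the 3 held the E-box letters CACCTG or CAGGTG (20.6% of all promoters), the AP-1 letters TGANTCA (7.71%) or the TATA box TATAAA or TTTATA (11.5%). The missing letters refer to this window only. Of the *ZEB1* promoter windows, not shown, that at chr10:31318167-31318466 held 1 E-box and that at chr10:31318966-31319265 held 3. The other *ZEB1* windows and those of *ZEB2* and *CDH2* held none.

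Genes next to the called genes were compared on the same scale, because *VIM* and *ZEB1* are encoded on the same chromosome. Among the 40 tested genes around *VIM* (20 on each side) the median log2 fold change of *KO* against *WT* in DMSO was 0.06. Of them, 6 were called higher, among these *VIM-AS1*, which overlaps with *VIM*, and 0 lower. The 40 genes around *ZEB1* had a median of 0.02 with 0 higher and 2 lower, those around *THBS1* 0.02 with 3 and 1, and those around *FN1* -0.01 with 3 and 1. The median of all genes was 0.03, with 9.1% called higher and 4.97% lower. After 5-FU the medians were -0.06, 0.01, 0.04 and -0.10 in the same order, against -0.05 for all genes. Calls higher and lower were 4 and 3 around *VIM*, 1 and 5 around *ZEB1*, 3 and 1 around *THBS1*, and 5 and 3 around *FN1*. Over all genes these shares were 7.58% and 10.6%. The tested gene just before *THBS1*, the Ras activator gene *RASGRP1*, was at 2.32 in DMSO and 2.49 after 5-FU, and was named after its values were seen.

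**Figure D5:**
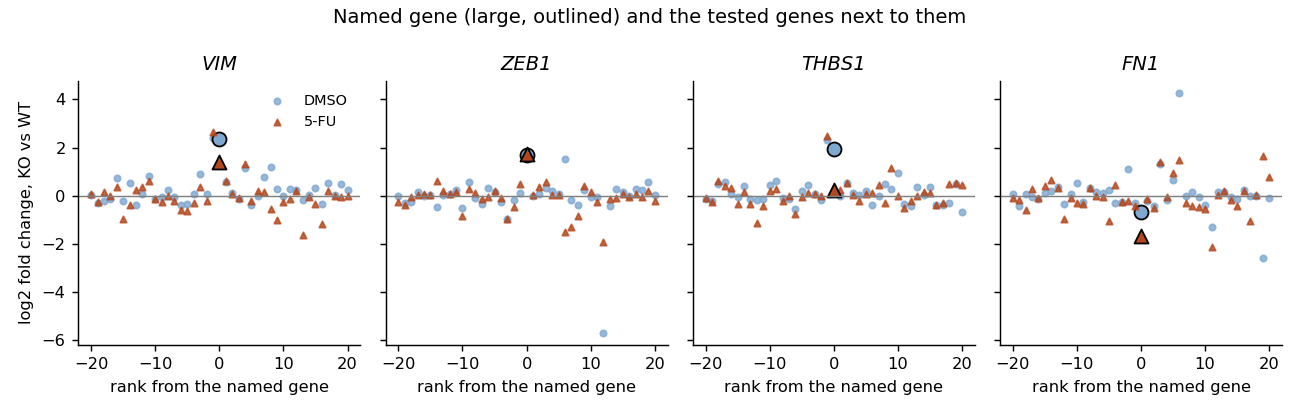
Log2 fold change of KO vs WT (y axis) of VIM, ZEB1, THBS1 and FN1 (large outlined symbols) and of the 20 tested genes on each side, by rank from the named gene (x axis), in DMSO (circles) and after 5-FU (triangles). Most neighbors lie near 0, and the gene before VIM, VIM-AS1, is at 2.41 in DMSO.

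Some of the genes overlap with other annotated genes, and whether the counting used the strand is not given in the sources used here, so that reads in shared parts cannot be assigned with certainty. *VIM-AS1*, antisense to *VIM*, had 3 to 11 counts in *WT* DMSO and 26 to 32 in *KO* DMSO, and its difference of 2.41 (SE 0.40, FDR 0.000124) was of the size of that of *VIM*. Over all libraries *VIM-AS1* had 2 to 32 counts and *VIM* 49 to 336. *ZEB1-AS1* had 67 to 130 counts over all libraries, in the range of *ZEB1* itself in *WT* cells (45 to 70 counts) or above. In contrast to *ZEB1*, it differed little between the genotypes in DMSO (0.09, SE 0.14, FDR 0.623) and was not called after 5-FU (0.50, SE 0.16, FDR 0.0177). *FSIP1*, which overlaps with *THBS1*, had 10 to 29 counts and did not follow it (DMSO, 0.00, SE 0.35, FDR 0.996).

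Finally, the tested genes with a mean of at least 1 CPM (13998) were searched for those whose log2 CPM was most similar to each of the 8 genes over the 11 libraries (Pearson's r). The libraries form 4 groups and are not independent points, so that r is a description and no p is given. *ZEB1* was most similar to *PLPP5* (0.993), *COG3* (0.991) and *ILKAP* (0.986), and *VIM* to *SLC39A7* (0.991), *NCSTN* (0.990) and *HGSNAT* (0.990). The closest genes to *THBS1* were *SPTAN1* (0.993), *PABPC1L* (0.993) and *CD109* (0.991), those to *FN1* *RBM47* (0.988), *PLEKHB1* (0.983) and *PDE2A* (0.983). For *SNAI2* these were the growth factor gene *FGF1* (0.987), *CCDC148* (0.981) and *SCAT1* (0.969). *CDH1* was followed by the connexin gene *GJB5* (0.993), *EPPK1* (0.993) and *CCND1* (0.993). The values were lower for *SNAI1*, with *WDR92* (0.952), *UBTF* (0.947) and *STARD7* (0.940), and for *TWIST1*, with *ICE1* (0.956), *EML5* (0.951) and *LRP8* (0.941). Between the 8 genes themselves, r was 0.938 for *VIM* and *ZEB1*, 0.912 for *SNAI2* and *CDH1*, -0.912 for *SNAI2* and *TWIST1*, and -0.864 for *FN1* and *ZEB1*.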

How the data were processed

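RNA of HCT116 cells was sequenced by the authors as paired-end reads, which were aligned to GRCh38 with ENSEMBL genes in CLC Genomics Workbench. The deposited values are raw counts per gene symbol, whole numbers without filter or normalization. Samples were grouped by their titles. Genes reaching 20 counts in any of the 11 libraries were fitted in edgeR 4.0.16 under R 4.3.3 (upper-quartile factors 0.955 to 1.05, quasi-likelihood test, two-sided, 1 model with a mean per group), with Benjamini-Hochberg adjustment over all 16123 genes. The SE was computed from the log2 fold change and the F statistic, and a prior count of 2 entered log2 CPM. The biological coefficient of variation was 6.72%, and depth limits genes with few counts (22831415 to 39064210 total counts). The fit was tested on simulated data. Alternatives used DESeq2 1.42.0, TMM factors, RUVg, other filters, glmTreat and left-out libraries.

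The 10 genes and all lists were chosen with earlier results of these data known. Values are given for the 10 genes, for the called genes with the highest and lowest log2 fold change per list and comparison, for the 3 most similar genes of each tested gene and for overlapping genes. Seed matches used GENCODE 44, and microRNAs and promoters RefSeq. Promoters of *SNAI1*, *SNAI2*, *TWIST1* and *CDH1* were not available, and those of *ZEB1*, *ZEB2* and *CDH2* are not shown.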

Additional observations from a re-analysis of the deposited data

Results flagged for a closer look

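The response to 5-FU differed between *miR-34a/b/c-KO* and *WT* cells for 4 of the 8 genes tested, by the interaction term of the model over all genes (FDR below 0.05 without a minimum fold change, which 26.1% of all genes passed). The response of *THBS1* in *KO* cells minus that in *WT* cells was -1.72 on the log2 scale, that of *FN1* -0.99 and that of *VIM* -0.97. For *SNAI1* the difference was 0.44, with an FDR of 0.0473 and below the fold limit. No group had more than 3 libraries, so that single libraries were not tested against the rest of their group.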

How the results depend on the processing

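The 40 log2 fold changes of the 8 genes in 5 comparisons were set against 21 alternatives, which gave 835 values. Of these, 767 kept their direction and their side of the thresholds, 30 lost a call, 15 gained one and 23 changed sign. The alternative without a minimum fold change used the values of the main fit, so that no sign could change there. It gave 9 of the 15 gained calls. With 1 RUVg factor, 0 genes were called lower in *KO* DMSO (349 of all 16123 genes). For 5-FU against DMSO, 0 were called higher or lower in either genotype. The *ZEB1* call in DMSO and the *VIM* interaction call were lost. Signs changed for *SNAI1* (0.092) and *FN1* (-0.63) after 5-FU in *KO* cells and for the *ZEB1* interaction (-0.029). Among list genes they changed for *MIR200CHG* in DMSO (-0.19), in *WT* cells after 5-FU for *SMAD7* (-1.93), *COL4A1* (-2.60), *LRP1* (-0.90) and *NECTIN3* (1.68), and in *KO* cells for *SNAI3* (-1.04), *SMAD7* (-1.74), *TGFB2* (0.68), *CD36* (-8.05), *NECTIN3* (1.09) and *NOTCH1* (-1.75). The cause was not tested. As 96.9% of the variance of the factor lay between the treatments, this fit cannot separate a 5-FU response from the factor. With the identical library kept, 0 genes were called lower in *KO* DMSO, against 619 of all genes. In *WT* 5-FU 0 were called higher and 0 lower, as over all genes. The interaction was called lower for 1 gene (243 of all genes), and was -0.060 for *ZEB1* and 0.16 for *CDH1*. glmTreat gave 0 lower in *KO* DMSO, 0 lower in *WT* 5-FU, 1 lower in *KO* 5-FU and 1 lower interaction. Over all genes these numbers were 327, 740, 875 and 154. Without a minimum fold change, 2 were lower in *KO* DMSO and 4 in *WT* 5-FU, against 3529 and 4569 of all genes. For *KO* against *WT* after 5-FU, 4 were higher and 2 lower (3483 and 4512 of all genes). The interaction was higher for 1 gene (1622 of all genes). TMM factors and DESeq2 each called 2 lower in *WT* 5-FU, adding *TWIST1*, against 1598 and 1612 of all genes. They gave *CDH1* interactions of 0.031 and 0.051, no filter one of 0.0024. With 20 counts required in every library, *SNAI2* was not tested and the *ZEB1* interaction was -0.0041. Leaving out each library gave 1 to 2 genes lower in *WT* 5-FU, interactions of -0.14 to 0.16 for *ZEB1*, -0.32 to 0.039 for *TWIST1* and -0.065 to 0.013 for *CDH1*, and *KO* against *WT* differences of -0.16 to 0.082 (DMSO) and -0.34 to 0.020 (5-FU) for *TWIST1* and -1.32 to 0.19 for *SNAI2* (DMSO). A lone *WT* 5-FU library was assumed to vary like the other groups.

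Same-numbered libraries did not visibly deviate together (correlations of deviations -0.149 to 0.149). Deviations within groups of 2 or 3 libraries depend on each other, so whether the numbers pair libraries cannot be decided. A replicate block on the title numbers changed no call of the 8 genes and gave a *ZEB1* interaction of -0.038. A block on the numbers in the file headers was added after seeing the data. It called 2 genes lower in *WT* 5-FU (1517 of all genes), adding *ZEB1* (-0.59). Depth limits *SNAI2* in DMSO and *ZEB2* and *CDH2* throughout.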
